A study of Mus musculus with 25 samples.

Results

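The adrenomedullin and CGRP (calcitonin gene-related peptide) receptor system was described by 5 genes of mouse atrium: the ligand gene Adm, the receptor gene Calcrl and the receptor partner genes Ramp1, Ramp2 and Ramp3. Members were the lines of the deposited expression table whose gene symbol was one of these names. All 5 were found, each on 1 line, among 14457 genes measured in 25 libraries.

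Adrenomedullin is a vasodilator peptide that is cut from a precursor, and its C-terminal amide, which the enzyme encoded by Pam (peptidylglycine alpha-amidating monooxygenase) makes from a glycine, is needed for full activity at its receptor. Calcrl encodes the calcitonin receptor-like receptor, a receptor coupled mainly to cyclic AMP that reaches the cell surface with a RAMP (receptor activity-modifying protein). With Ramp1 it forms the CGRP receptor, and with Ramp2 or Ramp3 it forms adrenomedullin receptors. In the heart and vessels Calcrl and Ramp2 are known above all from endothelial cells, Ramp1 from smooth muscle and sensory neurons, and Adm as a gene induced by stretch and low oxygen.

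The study measured messenger RNA in atria of adult mice aged 60 to 90 days that received no treatment, either wild type or labelled as Pam knockouts. The groups were 7 wild-type males (WM1 to WM7), 5 wild-type females (WF8 to WF12), 5 knockout males (KM13, KM01, KM03, KM05 and KM07) and 8 knockout females (KF14 to KF21), with the numbers taken from the labels. The labels do not name the strain, the Pam allele or the cells in which the gene was removed, and the series speaks of atria with basal or lowered levels of PAM. Library names fell into 3 sets, whose meaning the labels do not state. Names starting in LA or RA, the LARA set, belonged to 12 libraries from all groups, but to only KM13 of the knockout males. The CGI set held 9 libraries, none of a knockout male, and the other 4 knockout males formed the MaleKOAtrium set. In males, genotype and set can therefore not be told apart outside KM13. The labels do not say that each library is a separate animal, so p-values measure the spread between these libraries, which may be in part technical. Transcripts were measured, not peptides or their amidation.

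Adm is the one member that encodes a substrate of PAM, and its coding sequence shows where. In the GENCODE M21 annotation of GRCm38 (mm10), Adm lies at chr7:110627661-110629820 on the plus strand, with 4 exons. Its coding sequence of 184 codons held 2 places where a glycine codon is followed by 2 codons for lysine or arginine, the arrangement that processing enzymes cut and PAM amidates. The first has its glycine at codon 42, at the end of the proadrenomedullin N-terminal peptide, and spans the join of exons 2 and 3 (chr7:110628372-110628558 with the intron). The second has its glycine at codon 145, at the end of adrenomedullin itself, in exon 4 (chr7:110629016-110629054). Both are shown 5′ to 3′ on the coding strand as 30 bases in lower case, which encode the last residues of each peptide, followed by the glycine codon and the 2 basic codons in capitals.
Adm codon 42: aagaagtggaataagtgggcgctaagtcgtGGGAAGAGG
Adm codon 145: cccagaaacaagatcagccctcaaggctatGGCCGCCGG

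The other members lie elsewhere in the same annotation. Calcrl is at chr2:84330626-84425411 on the minus strand, Ramp1 at chr1:91179822-91225196, Ramp2 at chr11:101246028-101259546 and Ramp3 at chr11:6658521-6677475, these 3 on the plus strand. Ramp1 lies on the same chromosome as Pam, with 6.57 Mb between the end of Ramp1 and the start of Pam. Exons of Ramp2 overlap those of Vps25 on the same strand, over 637 bases for the single Vps25 exon with the longest overlap. Reads from shared stretches cannot be assigned to 1 gene, and the Ramp2 level may be affected. Ramp3 overlaps Gm11978 on the opposite strand, over 101 bases for the single exon with the longest overlap.

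Library depth ran from 2246887 to 8098602 reads (median 5385966), so 3 reads, the limit that a count of 0 allows, corresponded to 0.370 CPM in the deepest library and 1.34 CPM in the shallowest. CPM are read counts scaled to a fixed library total. Pam was at most 520 CPM in any knockout library and at least 1409 CPM in any wild-type library, as labelled. Genes that mark sex matched the labels in all 25 libraries. The summed level of 9 atrial myocyte markers ran from 21539 to 36652 CPM, and that of 4 ventricle markers from 54.6 to 6691 CPM. WF10 and KM01, the 2 shallowest libraries, stood apart with 30.2% and 18.5% of CPM on mitochondrial genes.

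By mean level per kilobase of exon, Adm and Ramp2 were the most abundant members, Calcrl and Ramp1 followed, and Ramp3 was scarce. Over the 25 libraries, Adm stood at 29.4 ± 21.7 CPM per kb (SD, n = 25) and Ramp2 at 28.1 ± 8.60. Calcrl was at 16.9 ± 5.15, Ramp1 at 11.1 ± 5.14 and Ramp3 at 1.24 ± 0.842 CPM per kb. Adm and Ramp2, neighbours in this order, did not differ beyond their spread, since Adm was above Ramp2 in 14 of 25 libraries. The mean of Adm does not describe every library, since Calcrl was above Adm in 11 libraries and Ramp1 above Adm in 9. Ramp2 was above Calcrl in 22 libraries and above Ramp1 in 24, the exception being WF12. Calcrl was above Ramp1 in 19 libraries, and their ranges overlapped. Ramp3 was the lowest member in all 25 libraries. The full order of Adm, Ramp2, Calcrl, Ramp1 and Ramp3 occurred in 12 libraries. The order depends on the length used, that of all annotated exons of a gene together. Without division by length, the mean was 92.7 CPM for Ramp2, 82.4 for Calcrl, 47.6 for Adm and 33.5 for Ramp1.

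No member passed the test for a genotype difference. Genes were tested with limma on log2(CPM + 1), a scale that understates the change of low genes, with Benjamini-Hochberg adjustment over all 14457 genes and a threshold of 0.05 on the adjusted p. In the comparison of knockout minus wild type over both sexes, which averages the difference in males and in females with the library set as a term, 0 of 5 members were called against 0.00692% of all genes (1 gene, Pam itself). In females the count was 0 of 5 against 0.0138% of all genes, and in males, fitted without the set, 0 of 5 against 0.429%. In the comparison over both sexes, the set term leaves KM13 as the only knockout male behind the male part. Its values are therefore not the mean of the female and male values given below. At an unadjusted p under 0.05 there was 1 member over both sexes (Calcrl), against 5.61% of all genes. There was 1 in females (Ramp1), against 4.54%, and there were 2 in males (Calcrl and Ramp1), against 13.2%. In the authors' deposited table, the log2 ratio of wild type over knockout was 0.78 for Ramp3 with an unadjusted p of 0.0464, 0.26 for Calcrl with a p of 0.0778, and between -0.09 and -0.04 for the other members.

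**Figure D1:**
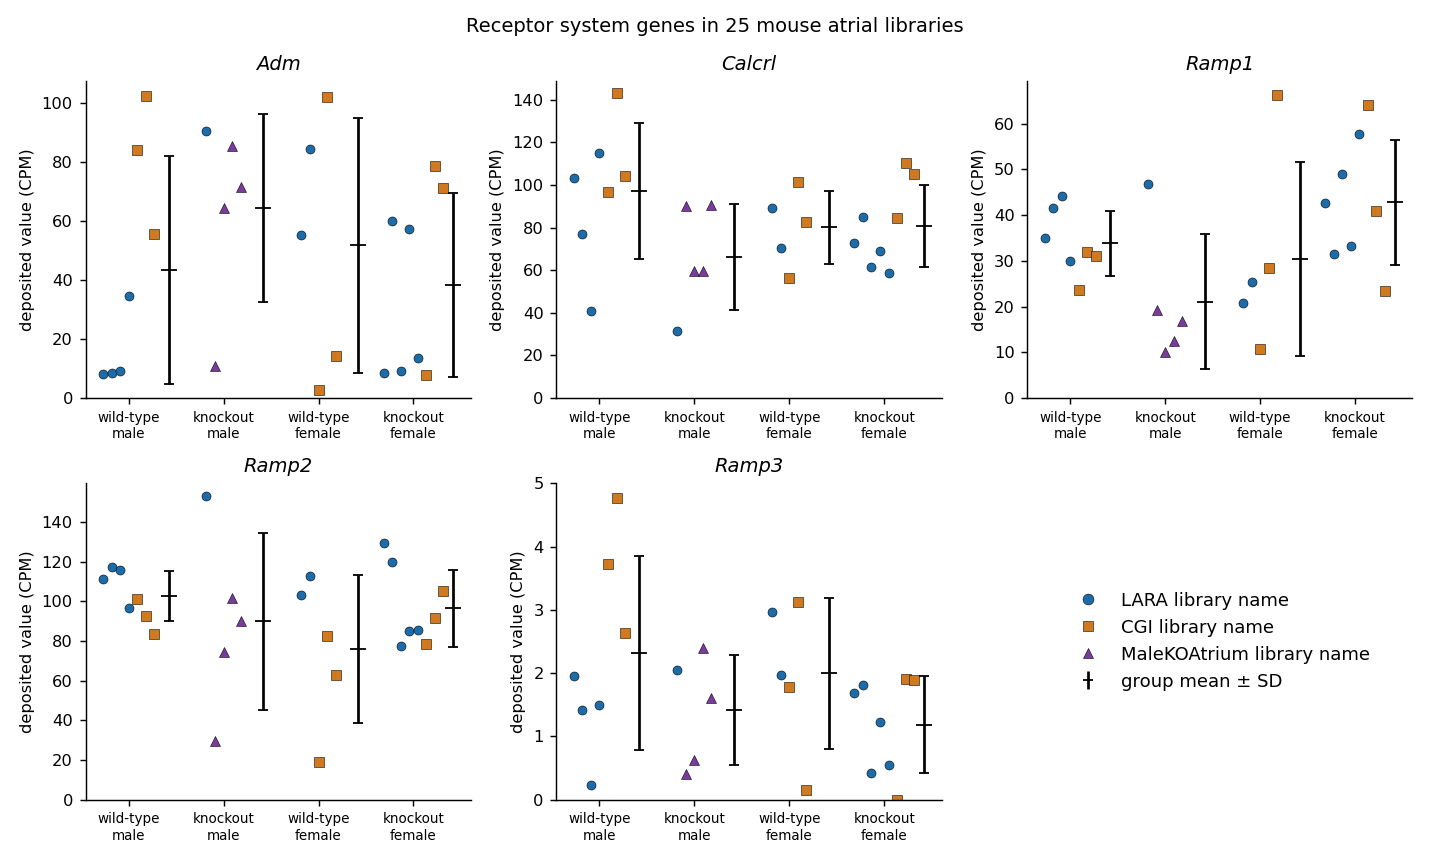
Deposited CPM (y axes, linear from 0) of the 5 genes in each of 25 libraries, by group (x axes); colour and shape give the library-name set and the black marks the group mean ± SD. Adm falls into a low and a high cluster within every group, with KM01 the lone low knockout male, and the 4 MaleKOAtrium libraries sit below all 7 wild-type males for Ramp1 while KM13 sits above them.

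Adm, the ligand gene, varied more than any other member, and its variation ran within the groups rather than between them. In wild-type males it was lowest at 8.23 CPM, with a median of 34.7 and a highest value of 102. In wild-type females WF8 to WF12 it stood at 55.2, 84.4, 2.67, 102 and 14.2 CPM. The knockout males KM13, KM01, KM03, KM05 and KM07 had 90.6, 10.8, 64.3, 85.4 and 71.4 CPM. The knockout females ran from 7.83 to 78.5 CPM with a median of 35.3. All groups thus held both low and high libraries, and they overlapped throughout. The group means were 43.3 ± 38.7 CPM in wild-type males (SD, n = 7), 51.7 ± 43.1 in wild-type females (n = 5), 64.5 ± 31.8 in knockout males (n = 5) and 38.2 ± 31.1 in knockout females (n = 8). By limma the knockout difference in Adm was 0.97 ± 0.86 log2 units over both sexes (SE, adjusted p 0.955). It was -0.05 ± 0.80 in females (adjusted p 0.993) and 0.90 ± 0.80 in males (adjusted p 0.669). Its 95% intervals reached from -0.81 to 2.75 over both sexes, from -1.70 to 1.60 in females and from -0.75 to 2.55 in males, so large differences either way were not detectable with this spread. Within the LARA set alone the Adm difference was -1.67 in females and 2.77 in males, where the knockout male is KM13 alone. The CGI set alone gave 1.05 for females.

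The low and high Adm libraries were those with little and much Bmp10. Bmp10 encodes a bone morphogenetic protein that in the mouse heart is made mainly by right atrial myocytes. The 10 libraries with Bmp10 from 0.43 to 669 CPM had Adm between 2.67 and 14.2 CPM (median 8.84), and the other 15, with Bmp10 from 1999 to 7597 CPM, had Adm between 34.7 and 102 CPM (median 71.4). The division at 700 CPM was chosen after the values were seen. Each group had libraries on the low side, 3 of the wild-type males, 2 of the wild-type females, KM01 and 4 of the knockout females. Over the 25 libraries the Spearman correlation of Adm with Bmp10 was 0.89, and it was 0.85 for the residuals after group and set terms. The points share their library, so composition and depth act on both genes. With log2(Bmp10 + 1) as a covariate the knockout difference in Adm was -0.00040 for the sexes together, 0.10 for females and -0.36 for males, none of them called. Among the LARA libraries, those with LA names had Adm at 8.23, 8.54 and 9.29 CPM in wild-type males and at 8.64, 9.04 and 57.1 CPM in knockout females. The 1 wild-type male with an RA name had 34.7 CPM, and the RA names of the other groups had between 13.5 and 90.6 CPM. The fitted LA minus RA difference in Adm was -1.18 ± 0.55 log2 units (unadjusted p 0.0529, adjusted p 0.9999, limma on 12 libraries). In that comparison 0 of 5 members were called, against 0% of all genes. At an unadjusted p under 0.05 there were 148 genes, 1.02% of all, and no member, and edgeR and DESeq2 each called 0 genes.

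**Figure D2:**
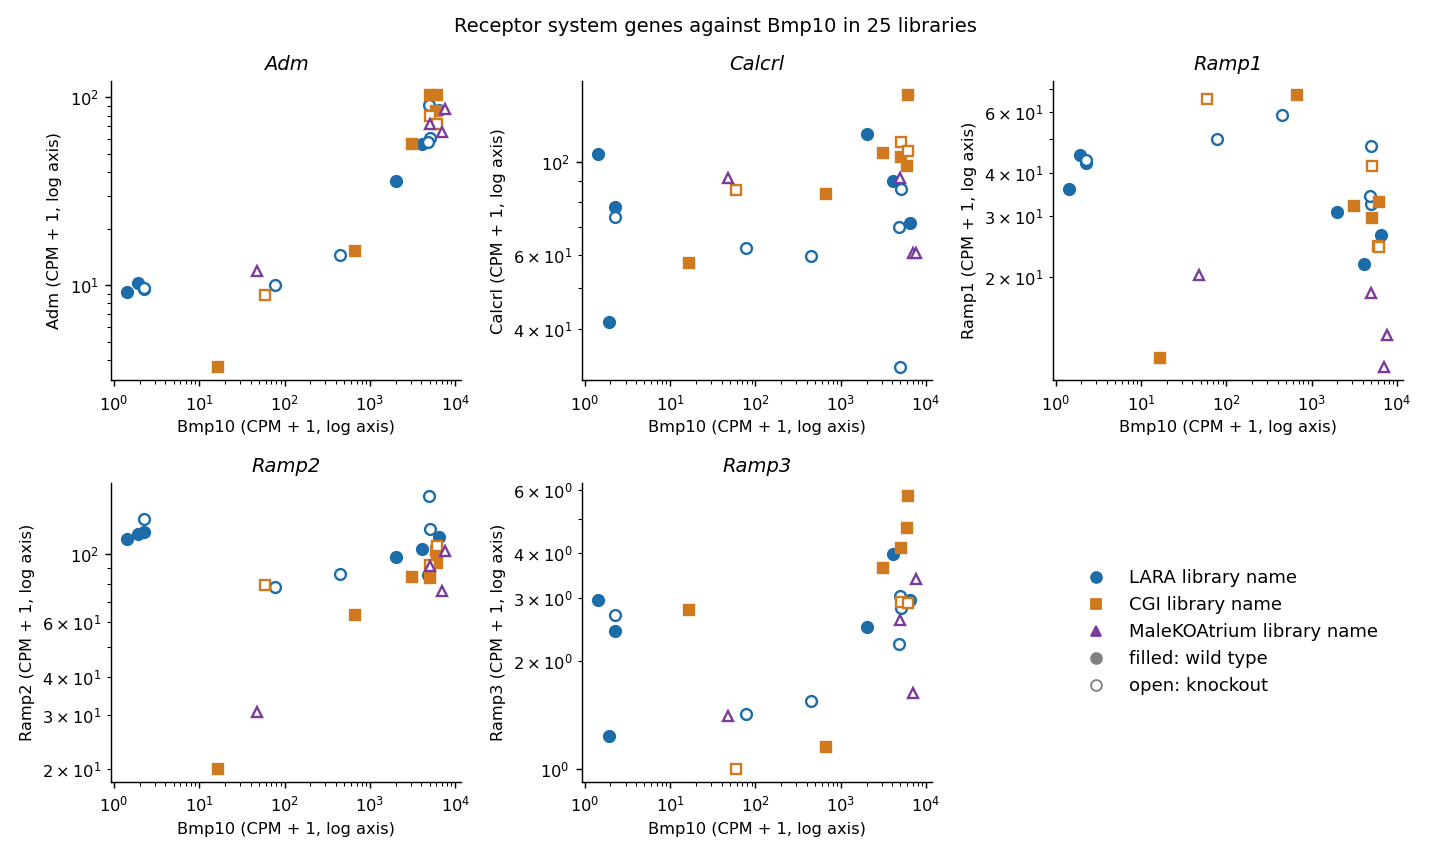
CPM + 1 of each gene (y axes, logarithmic) against CPM + 1 of Bmp10 (x axes, logarithmic) in 25 libraries; filled points are wild type, open points knockout, and colour and shape give the library-name set. Adm lies between 2.67 and 14.2 CPM in the 10 libraries with Bmp10 up to 669 CPM and between 34.7 and 102 CPM in the other 15, in both genotypes.

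Calcrl, the receptor gene common to both ligands, was the member with the smallest unadjusted p over both sexes, with levels that overlapped between genotypes. Wild-type males ran from 40.7 to 143 CPM with a median of 103, and the knockout males KM13, KM01, KM03, KM05 and KM07 had 31.6, 90.2, 59.6, 59.6 and 90.5 CPM. Wild-type females WF8 to WF12 had 89.2, 70.6, 56.5, 101 and 82.8 CPM, and knockout females ran from 58.7 to 110 CPM with a median of 78.6. All knockout males lay within or below the range of the wild-type males, below their median, and the 2 female groups covered nearly the same range. The limma difference was -0.62 ± 0.23 log2 units over both sexes (95% interval -1.10 to -0.15, unadjusted p 0.0122, adjusted p 0.803). It was -0.55 ± 0.26 in males (adjusted p 0.363) and 0.09 ± 0.21 in females (adjusted p 0.941), where the median of all genes was 0.12 and median-ratio scaling gave Calcrl -0.03. The male share of the first value rests on KM13, the library with the lowest Calcrl of all 25, because the set term leaves no other knockout male in it. Without KM13 the difference in males was -0.31. Across sexes, the knockout difference in Calcrl was 1.44 ± 0.45 log2 units higher in females than in males, again with KM13 as the only knockout male behind it. Without the set term this value was 0.56. The summed level of 12 blood endothelial markers ran from 1366 to 1878 CPM in wild-type males and from 1023 to 1719 CPM in knockout males, and none of the 12 was called. In these bulk libraries, fewer cells of a type and less RNA per cell cannot be told apart, and the part of the endothelial share in the Calcrl level was not tested.

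Ramp1, which turns the receptor toward CGRP, showed the most separate male libraries. Wild-type males ran from 23.5 to 44.2 CPM with a median of 31.8. KM01, KM03, KM05 and KM07 had 19.2, 9.99, 12.6 and 16.9 CPM, and KM13 had 46.8 CPM. The 4 MaleKOAtrium libraries were thus all below the 7 wild-type males, while the knockout male of the LARA set was above them. In males the limma difference was -0.84 ± 0.33 log2 units (95% interval -1.52 to -0.15, unadjusted p 0.0181, adjusted p 0.255). Without KM13 it was -1.17 with an adjusted p of 0.0375, where 3.79% of all genes were called, the only setting run in which a member was called in these 3 comparisons. Within the LARA set, which compares KM13 with 4 wild-type males, it was 0.32. Whether the low values go with the genotype or with the MaleKOAtrium set cannot be told apart. In females the sign was the other way: WF8 to WF12 had 20.8, 25.5, 10.7, 28.5 and 66.3 CPM, and knockout females ran from 23.5 to 64.2 CPM with a median of 41.7. The difference was 0.63 ± 0.29 log2 units (95% interval 0.02 to 1.24, unadjusted p 0.0420, adjusted p 0.853), with overlapping groups. It was 0.83 within the LARA set and 0.51 within the CGI set, and 0.36 without WF10 and 0.96 without WF12. Over both sexes it was 0.53 ± 0.32 (adjusted p 0.945), and -0.09 without the set term.

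Ramp2, the partner that makes the main adrenomedullin receptor, was the most even member among wild-type males. They ran from 83.4 to 117 CPM with a median of 101, a coefficient of variation of 12.3%. WF8 to WF12 had 103, 112, 19.1, 82.6 and 62.6 CPM, and KM13, KM01, KM03, KM05 and KM07 had 153, 29.7, 74.6, 102 and 90.3 CPM. Knockout females ran from 77.4 to 129 CPM with a median of 88.3. The 2 lowest values, 19.1 and 29.7 CPM, were those of WF10 and KM01, the libraries with the highest mitochondrial share. The highest was that of KM13. Differences were 0.42 ± 0.32 log2 units over both sexes (adjusted p 0.955), 0.44 ± 0.29 in females (adjusted p 0.853) and -0.36 ± 0.33 in males (adjusted p 0.677), all by limma. In females the value was -0.15 within the LARA set and 0.95 within the CGI set, which holds WF10. Without WF10 it was 0.07 in females, and without KM01 it was -0.01 in males.

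Ramp3, the other adrenomedullin receptor partner, was close to the limit of detection. It ran from 0 reads in KF19, where 3 reads would be 0.652 CPM, to 34 reads in WM6. Wild-type males had between 0.23 and 4.77 CPM with a median of 1.95, and WF8 to WF12 had 2.97, 1.97, 1.78, 3.12 and 0.15 CPM. KM13, KM01, KM03, KM05 and KM07 had 2.04, 0.40, 0.62, 2.39 and 1.61 CPM, and knockout females had between 0 and 1.91 CPM with a median of 1.45. The 3 highest libraries, WM6, WM5 and WF11, were wild type, but the groups overlapped. Differences were -0.12 ± 0.39 log2 units over both sexes (adjusted p 0.991), -0.36 ± 0.36 in females (adjusted p 0.856) and -0.40 ± 0.36 in males (adjusted p 0.678) by limma. Ramp3 was the member whose level went with that of Adm most closely, with a Spearman correlation of 0.65 over the 25 libraries and 0.75 for residuals.

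**Figure D3:**
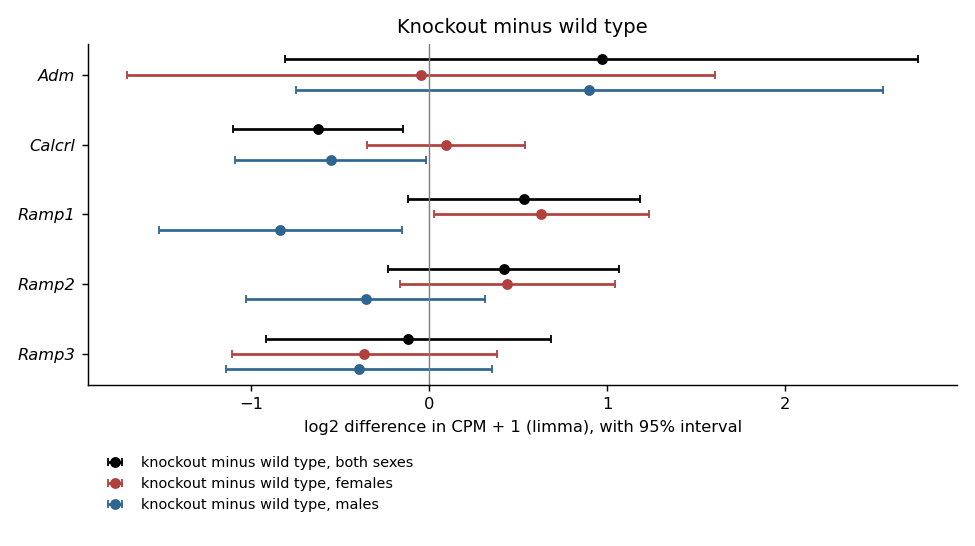
Difference in log2(CPM + 1), knockout minus wild type, for each gene (points) with 95% intervals (bars) from limma over 25 libraries, for both sexes together, females and males. The male part of the value for both sexes together rests on KM13, and males alone were fitted without the set. The intervals of Adm span from -1.70 to 2.75 across the 3 comparisons, those of Calcrl lie below 0 over both sexes and in males, and no adjusted p was under 0.05.

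The share of each RAMP in their summed transcripts per kilobase describes which receptor form the library could mostly encode, at the level of RNA. Shares and ratios depend on the length used, that of all annotated exons of a gene together, and the overlap of Ramp2 with Vps25 may affect them. Ramp2 made up 69.0% ± 9.95 (SD, n = 25), Ramp1 27.6% ± 10.6 and Ramp3 3.39% ± 2.75. In wild-type males the Ramp1 share was narrow, from 18.9 to 29.4%. It ran from 17.1 to 53.5% in wild-type females, from 11.3 to 40.7% in knockout males and from 18.9 to 47.2% in knockout females. The lowest shares, 11.3 and 12.5%, were those of KM05 and KM03, and the highest that of WF12. Along the order of Bmp10, the Ramp1 share was between 24.8 and 53.5% in the 10 low libraries and between 11.3 and 31.7% in the other 15. The ratio of Ramp2 to Ramp1 per kilobase was 0.86 to 2.91 in the former and 2.05 to 7.40 in the latter. These ranges overlap and were not tested. The summed RAMPs per kilobase exceeded Calcrl by a factor of 2.75 ± 1.80 (SD, n = 25), with the lowest ratio of 0.85 in KM01 and the highest of 9.79 in KM13.

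**Figure D4:**
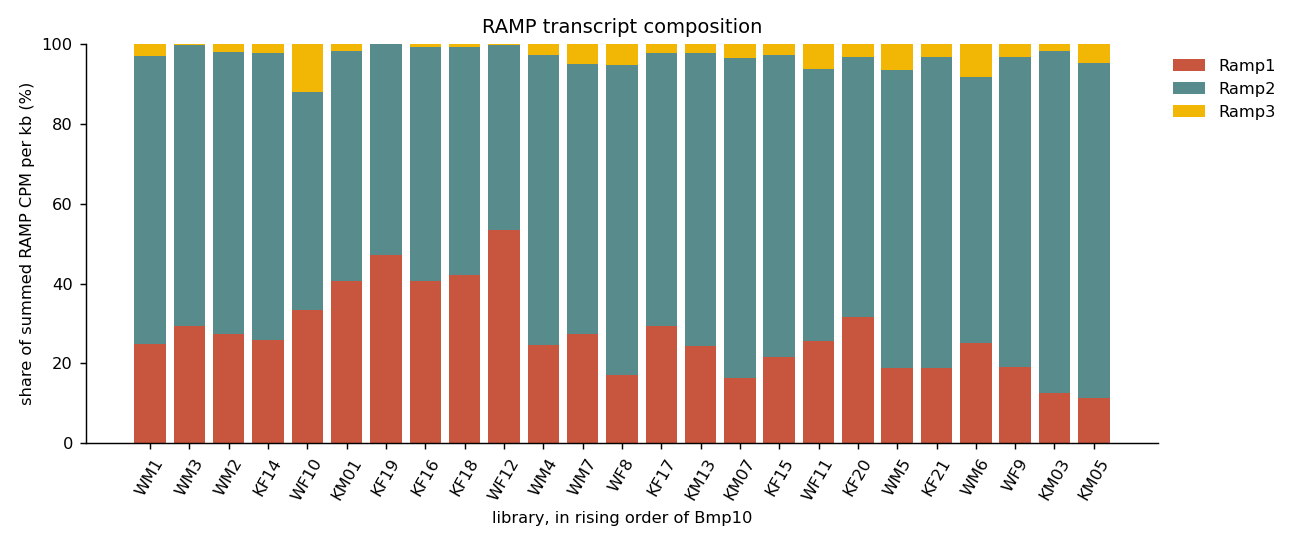
Share of Ramp1, Ramp2 and Ramp3 in their summed CPM per kb (stacked bars, percent, y axis) in each of 25 libraries, ordered from left to right by rising Bmp10 (x axis). Ramp2 is the largest part in all libraries but WF12, where Ramp1 holds 53.5%, and Ramp1 runs from 24.8 to 53.5% in the 10 libraries at the left and from 11.3 to 31.7% in the 15 at the right.

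Sex and library set were compared in the same fit. Where a comparison involves knockout males, the set term of that fit leaves only KM13 of them. Between females and males, 0 of 5 members were called in wild types, against 0.0553% of all genes, and 0 of 5 in knockouts, against 0.0138%. At an unadjusted p under 0.05 there were 0 members in wild types, against 6.38% of all genes, and 1 in knockouts, against 7.03%. In wild types the member with the smallest p was Ramp2, with a female minus male difference of -0.56 ± 0.30 log2 units (adjusted p 0.775), and -0.19 without WF10. In knockouts it was Calcrl, at 1.15 ± 0.40 (unadjusted p 0.0077, adjusted p 0.503), a value that again rests on KM13 for the males. For the difference of the knockout effect between sexes, 0 of 5 members and 0% of all genes were called by limma. For that comparison 1326 genes (9.17%) had an unadjusted p under 0.05, among them 1 member, Calcrl, and edgeR called 10 genes and DESeq2 234, none of them a member. Between the CGI and LARA sets, 0 of 5 members were called against 4.52% of all genes, and 1 had an unadjusted p under 0.05, against 21.7%. Calcrl was 0.39 ± 0.17 log2 units higher in the CGI set (adjusted p 0.181), with set means of 98.3 ± 23.5 CPM (SD, n = 9) and 72.8 ± 23.8 CPM (n = 12). Ramp2 differed by -0.43 ± 0.23 (adjusted p 0.285), from 109 ± 21.1 CPM in the LARA set to 79.6 ± 26.0 CPM in the CGI set.

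Of the other ligands and receptors of the family, 4 of 8 listed genes were measured, and 1 fell in knockout males, against 0.429% of all genes called there. The lists of pathway genes were chosen with earlier results of these data known. Ackr3 encodes an atypical chemokine receptor that also takes up adrenomedullin without signalling through G proteins. It was at 102 to 228 CPM in wild-type males (median 182). KM13, KM01, KM03, KM05 and KM07 had 106, 53.3, 62.4, 77.4 and 72.1 CPM, so that the 4 MaleKOAtrium libraries lay below all wild-type males and KM13 lay just above the lowest of them. The fall in males was -1.27 ± 0.23 log2 units (adjusted p 0.0066, limma). In females the difference was -0.06 ± 0.20 (adjusted p 0.957). The knockout difference was 0.84 ± 0.41 higher in females than in males in the fit with the set term, which leaves KM13 as the only knockout male. The male call was lost with the set as a term (-0.90, adjusted p 0.521) and within the LARA set (-0.96, adjusted p 0.192). It was also lost without WM1, WM2, WM3 and KF14 (-1.05, adjusted p 0.213) and without the libraries low in Bmp10 (-0.94, adjusted p 0.0604). Calcb, which encodes another form of CGRP, itself an amidated peptide, ran from 6.72 to 9.96 CPM in wild-type males and from 1.60 to 6.38 CPM in knockout males, a difference of -0.86 ± 0.30 (adjusted p 0.188). Gpr182, an atypical chemokine receptor once assigned to adrenomedullin, and Crcp, a component of the CGRP receptor, were not called in any genotype comparison. Adm2, Calca, Iapp and Calcr were not analysed here.

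The genes for peptide amidation and breakdown, for signalling and for receptor traffic were summarised by list. Of 7 measured genes for amidation, binding and breakdown, Pam was the 1 called, at -3.35 ± 0.30 log2 units over both sexes (adjusted p 2.54e-07, limma). Dpp4, which encodes dipeptidyl peptidase 4, had -1.01 ± 0.26 in males (adjusted p 0.0695), and Mme, which encodes the peptidase neprilysin, -1.24 ± 0.51 (adjusted p 0.269). Of 25 genes for cyclic AMP signalling, 0 were called in the 3 genotype comparisons, with a median difference of -0.10 for the sexes together, 0.06 for females and 0.02 for males, beside 0.00, 0.12 and 0.05 for all genes. Gnas, the gene of the stimulatory G protein subunit, came nearest in males at 1.13 ± 0.27 (adjusted p 0.0579), with 2.79 to 8.59 CPM in wild-type males, 5.38 CPM in KM13 and 12.8 to 19.7 CPM in the MaleKOAtrium libraries. Gnas lies in a locus of overlapping transcripts, where reads may be split or left unassigned, so its level is uncertain. Crem, a transcription factor gene of the pathway, had 0.50 ± 0.19 in females (adjusted p 0.853) and -0.63 ± 0.19 in males (adjusted p 0.134). Of the 10 measured genes for receptor desensitisation and recycling, Slc9a3r1 was called, in males, against the same 0.429% of all genes. It encodes a scaffold protein that, in studies of human RAMP3, takes part in the traffic of the adrenomedullin receptor. Slc9a3r1 had 41.8 to 72.3 CPM in wild-type males, 39.2 CPM in KM13 and 17.2 to 21.2 CPM in the MaleKOAtrium libraries. Its mean was 29.3 ± 10.2 CPM in wild-type females (SD, n = 5) and 30.5 ± 6.94 CPM in knockout females (n = 8). Wild-type females, at most 39.0 CPM, all lay below the wild-type males, and WF10 lay below all knockout males. Low levels beside wild-type males were thus not particular to knockouts. In females the knockout difference was -0.14 within the LARA set and 0.22 within the CGI set, neither called. The difference in males was -1.30 ± 0.24 log2 units (adjusted p 0.0099, limma). This call was lost under the same 4 alternatives as that of Ackr3, with adjusted p-values of 0.0717 to 0.689.

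Markers of the outer layer of the heart were also among the genes called lower in knockout males. Of 10 epicardial and mesothelial markers, 5 were called lower in knockout males (Upk3b, Upk1b, Lrrn4, Krt8 and Krt19), against 0.429% of all genes, and all 10 had negative differences. Their summed level was 1088 to 1666 CPM in wild-type males and 282 to 945 CPM in knockout males. KM13 had the 945 CPM, so its summed level was also below all wild-type males. The summed level was 338 to 965 CPM in wild-type females, a range that holds KM13, and 626 to 1384 CPM in knockout females. In wild types all 10 markers were lower in females than in males. Of these, 9 had an unadjusted p under 0.05 by limma, against 6.38% of all genes, and 0 were called. Low levels of these markers beside wild-type males were thus not particular to knockouts. Upk3b alone, a mesothelial marker, had 396 CPM in KM13, within the range of 345 to 515 CPM of the wild-type males. The MaleKOAtrium libraries had 36.5 to 124 CPM of Upk3b. The part of these cells in the values of Ackr3 and Slc9a3r1 was not tested. The other vessel and stroma lists had no member called in the genotype comparisons.

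**Figure D5:**
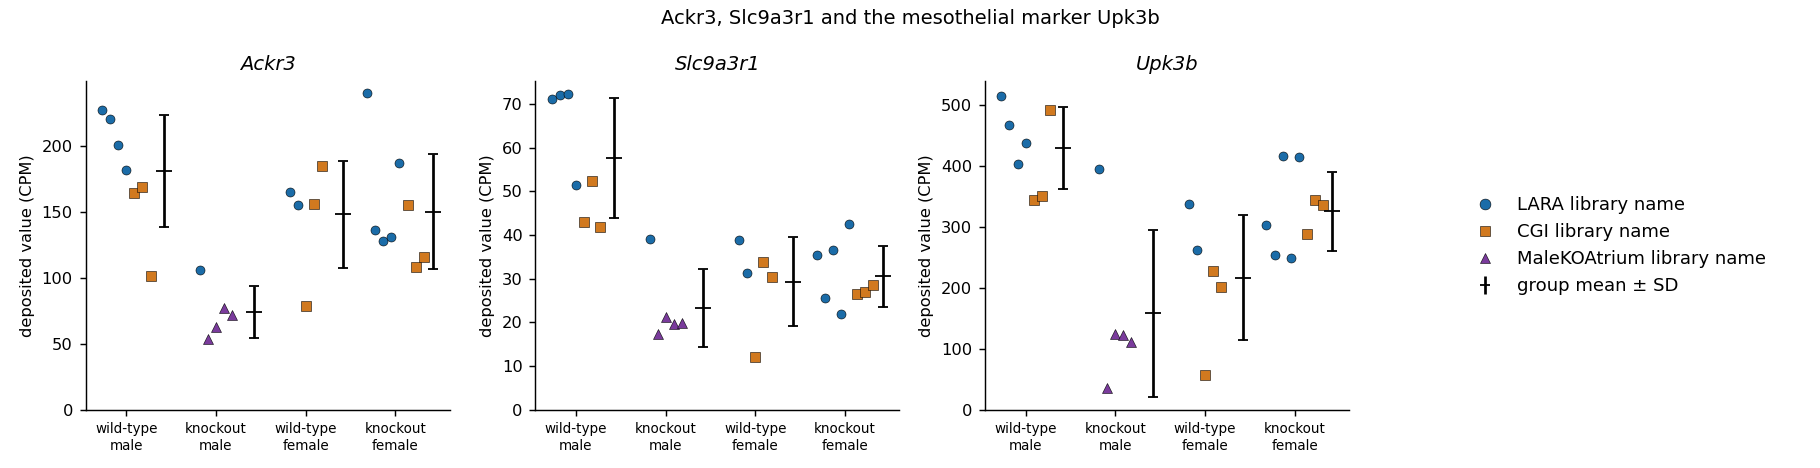
Deposited CPM (y axes, linear from 0) of Ackr3, Slc9a3r1 and the mesothelial marker Upk3b in 25 libraries, by group (x axes); colour and shape give the library-name set and the black marks the group mean ± SD. In knockout males the 4 MaleKOAtrium libraries are the lowest for all 3 genes, with Ackr3 at 53.3 to 77.4 CPM and Upk3b at 36.5 to 124 CPM, and KM13 lies above them.

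Genes known to respond to low oxygen, as Adm does, were examined as a list of 20, all measured. None was called in the genotype comparisons, and the median difference was 0.16 log2 units for the sexes together, 0.08 for females and 0.20 for males. Vegfa, the gene of the endothelial growth factor, had 1.04 ± 0.32 in males (adjusted p 0.147, limma), with 261 to 578 CPM in the MaleKOAtrium libraries, 108 CPM in KM13 and 75.0 to 250 CPM in wild-type males. Between the CGI and LARA sets, 1 of these 20 genes and 2 of the 25 for cyclic AMP signalling were called, against 4.52% of all genes, and none of the other pathway lists. The marker genes Plvap, Mmrn1, Cd68, Mrc1 and Actc1 were called lower in the CGI set. Ndrg1, a gene induced by low oxygen, was lower in the CGI set by -0.92 ± 0.16 (adjusted p 0.0033). Prkar2a, a regulatory subunit of protein kinase A, was higher by 0.59 ± 0.15 (adjusted p 0.0289) and Pde3a, a phosphodiesterase of cyclic AMP, by 0.59 ± 0.16 (adjusted p 0.0308).

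The genes whose levels ran most like each member over the 25 libraries were ranked by Spearman correlation among 11408 other genes with a mean of at least 5 CPM (11409 for Ramp3), as a description. The points share their libraries, and many genes move together with composition. For Adm the first 4 were Setd3 (0.91), Khdrbs3 (0.89), Bmp10 (0.89) and Gsg1l (0.88), and their residual correlations after group and set were 0.85, 0.91, 0.85 and 0.94. For Calcrl they were Omd (0.88), Fam45a (0.88), Tlr4 (0.88) and Rnf2 (0.85), with residual values of 0.68 to 0.81. For Ramp1 they were Gm15543 (0.85), Lamb3 (0.84), Ndufa13 (0.83) and Hsbp1l1 (0.81), with residual values of 0.51 to 0.72. For Ramp2 they were Elovl1 (0.88), Dpagt1 (0.88), Degs1 (0.87) and Oxnad1 (0.85), with residual values of 0.76 to 0.89. For Ramp3 they were Pla2g5 (0.76), Prcp (0.75), Srpx (0.75) and Hamp (0.74), with residual values of 0.72 to 0.83. No member was among the 4 nearest genes of another. The correlation of Calcrl, the receptor gene, was -0.16 with Ramp1 and -0.04 with Ramp2, its partner genes, with residual values of -0.07 and 0.19. That of Adm was -0.32 with Ramp1, 0.18 with Ramp2 and 0.25 with Pam, with residual values of -0.46, 0.59 and 0.59.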

How the data were processed

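The members and the gene lists were chosen with earlier results of these data known. Per the submitters' processing notes, the authors used HISAT2, HTSeq and DESeq2 with the genome build mm10, of which no versions are stated. Per the labels, libraries were stranded TruSeq mRNA, sequenced in a single NextSeq run with paired reads of 75 bases and a plan of 20 M reads each. The deposited values are named FPKM in the file header, but 100% of the values in every library were whole multiples of 1 step (tolerance 0.001 reads), the same for all genes, so they are CPM, that is, deposited counts scaled to the library total without gene length. The steps gave back the whole reads and the depth. The authors' deposited table also gives a log2 ratio and a p-value per gene, which are quoted only where named. Of 14467 deposited lines, 10 lines of 5 symbols listed more than once were left out.

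Values were tested as log2(CPM + 1) with limma 3.58.1 (linear model, moderated with a trend) in R 4.3.3, over 14457 genes and all 25 libraries with Benjamini-Hochberg adjustment, after a run on simulated data. Terms were group and library set, without the set for the male comparison, where 4 of 5 knockout males are a set of their own. Levels between genes are CPM divided by the length of all annotated exons of a gene together (GENCODE M21), not by that of a single transcript. Intervals of 95% are limma's. The count floor of 3 reads covers counting error only. No 2 libraries of a group agreed within sampling noise (lowest chi-square per degree of freedom 2.99). Alternatives were a pseudocount of 0.25, median-ratio scaling, quantile normalization, a minimum mean of 5 CPM, edgeR 4.0.16 (quasi-likelihood test) and DESeq2 1.42.0 on the recovered reads, the set term added or left out, single sets, and libraries left out; Bmp10 as a covariate and leaving out libraries with Bmp10 under 700 CPM were chosen after seeing the data, as was a replicate block over the 4 wild-type and 4 knockout males with equal label numbers. Named genes were the members, pathway genes called in a comparison or with the smallest p in a genotype comparison, markers beside a result, and the 4 genes most like each member. Values of 2 list genes are not reported here.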

Additional observations from a re-analysis of the deposited data

Results flagged for a closer look

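Adm in the knockout male library KM01 stood at 10.8 CPM, apart from the other 4 knockout males, of which the nearest had 64.3 CPM. It was picked out because, on the log2(CPM + 1) scale, its gap to the nearest library made up 0.835 of the range of the group, above Dixon's critical value of 0.71 for 5 samples. The 20 combinations of 5 members and 4 groups were examined, and chance gives about 1 in 20. KM01 also had 46.5 CPM of Bmp10, against 4950 to 7597 CPM in the other knockout males, and 18.5% of CPM on mitochondrial genes. Their part in the value was not tested. Without KM01 the knockout difference of Adm in males was 1.45 log2 units, against 0.90 with it, and neither was called.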

How the results depend on the processing

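The 21 member results examined kept their direction and their side of the threshold in 224 fits under another setting and 494 that left out 1 library. They changed sign in 22 and 10 of such fits and passed the threshold in 3 and 1. Leaving out a female library could not change the knockout difference in males, nor leaving out a knockout male that in females. In fits with the set term, leaving out KM01, KM03, KM05 or KM07 could not change a difference either, since the term of their own set takes them up. Such fits were bound to keep their direction.

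In knockout minus wild type over both sexes, Adm was -0.00040 with Bmp10 as a covariate and Ramp1 was -0.092 without the set term, both of the other sign than reported. In females, Adm was 1.05 within the CGI set and 0.10 with Bmp10 as a covariate, and Ramp2 was -0.15 within the LARA set. Calcrl in females was -0.031 under median-ratio scaling, -0.0074 under quantile normalization, -0.019 in edgeR, -0.030 in DESeq2, -0.053 without WF10 and KM01, and -0.20 within the LARA set. In males, Adm was -0.28 without WM1, WM2, WM3 and KF14 and -0.36 with Bmp10 as a covariate. With the set as a term, which leaves KM13 alone against the wild types, Ramp1 was 0.44, Ramp2 0.40 and Ramp3 0.13 in males, and within the LARA set they were 0.32, 0.47 and 0.49. Without the libraries with Bmp10 under 700 CPM, Ramp2 was 0.12 in males, and its female minus male difference in wild types was 0.020. The LA minus RA difference of Adm was 0.44 with Bmp10 as a covariate. None of these values was called, and the cause was not tested.

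A member passed the threshold under 4 alternatives. Without KM13, Ramp1 was called in males. Without the libraries low in Bmp10, Calcrl was called between female and male knockouts (1.35, adjusted p 0.041), which made 1 member, against 0.913% of all genes. Between the CGI and LARA sets, 1 member was called by DESeq2 (Ramp2, -0.48, adjusted p 0.0324), against 17.2% of all genes, and 1 without WF10 and KM01 (Calcrl, 0.46, adjusted p 0.0385), against 20.8%. Leaving out 1 library at a time moved Adm in females from -0.84 to 0.55, Calcrl in females from -0.053 to 0.22, Ramp3 over both sexes from -0.26 to 0.04, Ramp1 in males from -1.17 to -0.64, and the number of members called in males from 0 to 1. Ramp3 was left out by the minimum mean of 5 CPM. The labels give 4 wild-type and 4 knockout males equal numbers (1, 3, 5 and 7), but the deviations of same-numbered libraries from their group means correlated at 0.31, -0.13, 0.10 and 0.08, so they were taken to share only a number. With a replicate block over these 8 males, Adm was 0.85, Calcrl -0.14, Ramp1 -1.14, Ramp2 -0.59 and Ramp3 -0.41, with 0 members and 1 gene called, against 13 genes without the block; Ackr3 (-1.33) and Slc9a3r1 (-1.46) were called in neither.

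Over all genes, the number called over both sexes was 1 as reported, 7 with edgeR, 123 with DESeq2 and 49 without WF10 and KM01. In females it was 2, 13 with DESeq2 and 25 within the CGI set. In males it was 62, 187 with edgeR, 581 with DESeq2, 16 without the libraries low in Bmp10, 1 with the set term and 548 without KM13. Between sets it was 653, 2491 with DESeq2, 2 without WM1, WM2, WM3 and KF14 and 3005 without WF10 and KM01. Ramp3, with 0 to 34 reads in a library, is limited by depth.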
